A study of Rattus norvegicus with 6 samples.

Results

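The TAM receptors and the HGF and MET pair are described here through 8 genes: the receptor genes Axl, Mertk and Tyro3, their ligand genes Gas6 and Pros1, Hgf, its receptor gene Met, and the MET relative Mst1r. A gene was taken when a probe set of the array carried its symbol and no other symbol, with the brightest of several probe sets to be kept. All 8 were found, each with a single probe set, among 18166 genes with a value. RNA came from cultures of newborn wild-type Sprague-Dawley rats, 3 isolates of SKPs (skin-derived precursors of the back) and 3 of NSCPs (Schwann cell precursors of the sciatic nerve), with 1 array per isolate. SKPs were grown as spheres at 50000 cells/ml with EGF (20 ng/ml), FGF2 (40 ng/ml) and, as the growth text was read, B27 at 2%. NSCPs were grown with forskolin (5 μM), N2 (2%) and neuregulin-1β (25 ng/ml) on laminin (4 μg/ml) and poly-D-lysine (30 μg/ml). Tissue, medium and growth form changed together and cannot be told apart. The series title places the arrays in work on paracrine factors from nerve-derived precursors, so ligands are given together with their receptors.

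TAM receptors are tyrosine kinases that take their name from TYRO3, AXL and MERTK. Their ligands GAS6 and protein S (the product of Pros1) hold residues carboxylated with the help of vitamin K, which bind phosphatidylserine on dying cells and on membrane debris, so that the ligand bridges the debris to the receptor. Signals from these receptors drive engulfment and dampen innate immune responses, and in injured peripheral nerve AXL and MERTK take part in the clearance of myelin by Schwann cells. HGF (hepatocyte growth factor) is mostly secreted by mesenchymal cells as an inactive precursor, is cleaved by serine proteases and binds MET on neighbouring cells, where it drives motility and growth. MST1R, also called RON, is the receptor of the related ligand MSP.

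The ligand genes were lower in NSCPs than in SKPs, Gas6 by 11.02-fold, Pros1 by 2.24-fold and Hgf from a level above background to a level within it. The receptor genes did not go the same way: Tyro3 was 2.35-fold and Met 2.29-fold higher in NSCPs, Axl was 1.80-fold lower, and Mertk and Mst1r did not pass the test. Of the 8 genes 2 were higher and 4 lower in NSCPs (limma, adjusted p under 0.05 over all genes), against 43.7% of all genes called in either direction, 25.2% higher and 18.6% lower. The arrays of the groups did not overlap for 7 of the 8 genes, which was the case for 56.6% of all genes. Limma's treat, a test against a 2-fold change itself, called 2 of the 8, Gas6 and Hgf, and 9.68% of all genes. With 8 genes these counts say little about the group as a whole, and the results below are about the single genes. All values are deposited log2 expression values, so a difference of 1 is a 2-fold change. They allow a gene to be compared between arrays but not with another gene. Background means the level of 5.32, below which 95% of 227 olfactory and vomeronasal receptor genes lay. All 8 genes had SKP means above it, and 6 of the 8 had NSCP means above it. Of all genes with a mean above it in at least 1 group, 54.3% were called.

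The 250 bases before the start site are shown for Gas6 and Hgf, because these ligand genes had the largest differences of the 8 and both were lower in NSCPs. The sequences are from RefSeq (build GRCr8, 5′ to 3′ along the gene), and capitals mark matches to the motifs named after them.
Gas6, chr16:82747426-82747675, plus strand: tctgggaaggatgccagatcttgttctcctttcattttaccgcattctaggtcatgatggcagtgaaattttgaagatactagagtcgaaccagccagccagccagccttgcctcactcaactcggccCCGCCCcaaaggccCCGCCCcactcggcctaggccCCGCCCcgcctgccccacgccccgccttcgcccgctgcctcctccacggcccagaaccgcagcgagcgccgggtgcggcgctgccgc
Hgf, chr4:19700468-19700717, minus strand: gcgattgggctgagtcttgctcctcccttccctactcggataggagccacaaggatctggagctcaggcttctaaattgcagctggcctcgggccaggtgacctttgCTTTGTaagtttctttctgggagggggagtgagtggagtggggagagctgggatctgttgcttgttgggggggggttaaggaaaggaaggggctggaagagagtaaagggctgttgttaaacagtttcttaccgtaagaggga
The motifs searched on both strands were Sp1 (GGGCGG), AP-1 (TGANTCA), TEAD (GGAATG), a cAMP response element (TGACGTCA), a TATA box (TATAAA) and a SOX core (ACAAAG), and no marked matches overlap in these sequences. The Gas6 window held 3 Sp1 matches, which began at positions -122, -108 and -87 from the start, and 65.2% of its bases were G or C. The Hgf window held no Sp1 match and 1 SOX core match, at -143. All 8 genes had an entry in the table, and 6 of the 8 windows held an Sp1 match, against 30.5% of the 33469 windows of that length in the table. The Sp1 letters are all G or C. The share of all windows with less G and C was 99.4% for Tyro3, 89.7% for Pros1, 89.1% for Mertk and 84.8% for Gas6. It was 78.2% for Axl and 66.7% for Mst1r, and 58.2% for Hgf and 18.3% for Met, which held no match. The Sp1 count was not compared with windows of like G and C content. SOX core letters were found in 3 of the 8 windows (Hgf, Met and Pros1), against 16.3% of all windows, and TATA box letters in 0 of the 8, against 12.9%. The AP-1 letters were found in the Tyro3 window alone of the 8, against 6.34% of all windows, and the TEAD and cAMP response element letters in 0 of the 8, against 12.1% and 1.59%. A match describes these letters in this window and is not evidence of binding.

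The labels were checked first. Of 8 measured markers of the Schwann cell lineage 7 were higher in NSCPs and 1, Egr2, was lower, while 10 of 10 fibroblast and dermal mesenchyme markers were lower. Of 15 markers of macrophages and other leukocytes 14 were lower, and C1qa did not pass. Their summed linear signal ran from 21530 to 40040 over the SKP arrays and from 606.7 to 622.0 over the NSCP arrays, where 8 or 9 of the 15 were within background, Ptprc and Lyz2 among them. In SKPs none of the 15 was within background in any array. Adipocyte markers were lower in 6 of 6. Arrays of the same kind correlated across genes with r from 0.984 to 0.993. In such mixed cultures, fewer cells of a type and less RNA per cell cannot be told apart.

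Gas6, which encodes the ligand that binds all 3 TAM receptors, had values of 10.67, 10.72 and 11.12 in SKP replicates 1, 2 and 3 and of 7.16, 7.56 and 7.40 in NSCP replicates 1, 2 and 3. Every SKP array was far above every NSCP array, and the NSCP arrays were still above background, by 2.06 in the mean. The means were 10.84 ± 0.25 in SKPs and 7.38 ± 0.20 in NSCPs (SD, n = 3 each), and the difference, NSCPs minus SKPs, was -3.46 (SE 0.17, limma adjusted p = 8.20e-07). A larger absolute difference was found for few genes, since 97.7% of all genes differed by less. Without SKP replicate 3, the highest, the difference was -3.32.

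Pros1, which encodes protein S, a ligand of TYRO3 and MERTK and an anticoagulant of plasma, had SKP values of 10.59, 10.83 and 10.61 and NSCP values of 9.65, 9.23 and 9.66. The groups did not overlap, and all 6 arrays were well above background. The difference was -1.16 (SE 0.15, limma adjusted p = 3.66e-04), with a 95% interval from -1.52 to -0.81. The interval of Gas6, from -3.84 to -3.08, did not overlap it. Its NSCP mean stood 4.20 above the background level.

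**Figure D1:**
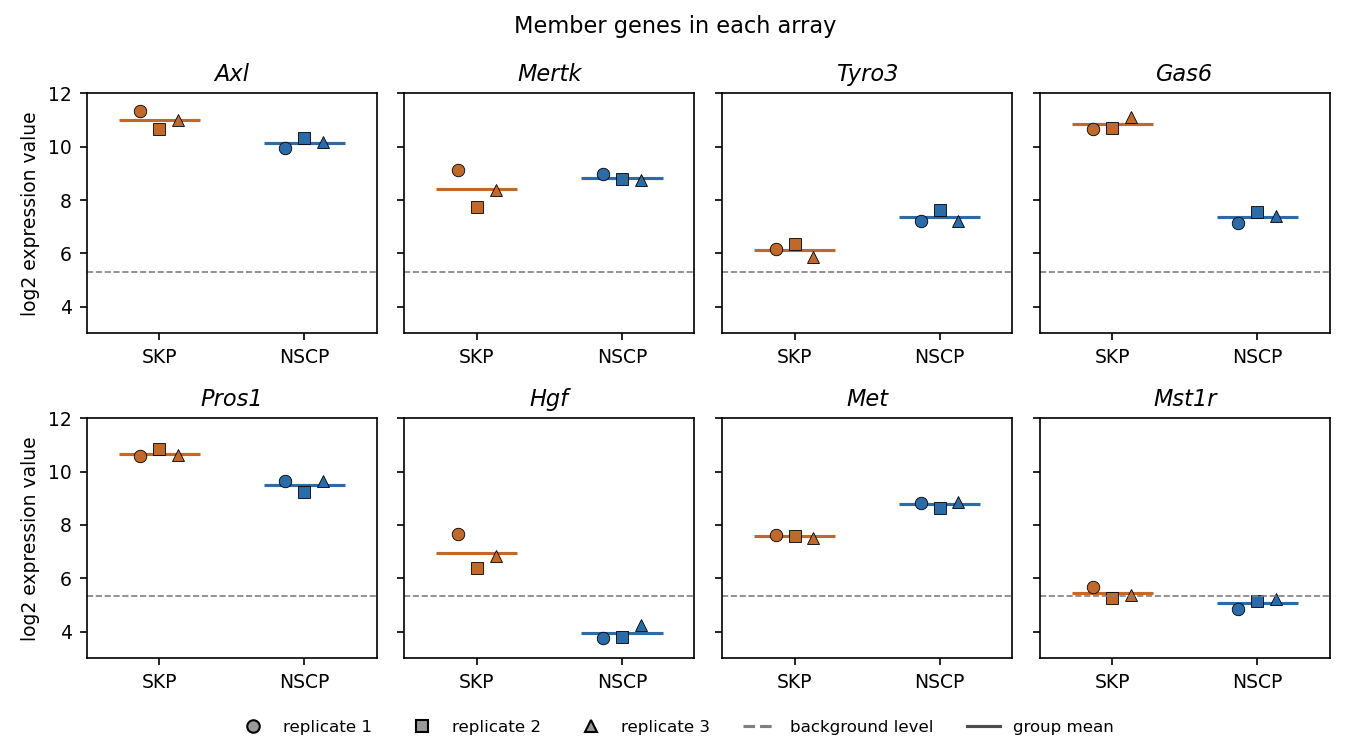
Log2 expression values of the 8 genes in each array, with SKPs in orange and NSCPs in blue, a marker shape per replicate, a line at the group mean and the background level of 5.32 dashed. The SKP and NSCP points do not overlap except for Mertk, whose SKP arrays spread from 7.73 to 9.13 around the NSCP arrays.

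Among the receptors, Axl encodes the TAM receptor that binds GAS6 but not protein S. Its SKP values were 11.33, 10.68 and 10.99 and its NSCP values 9.96, 10.33 and 10.17. All SKP arrays lay above all NSCP arrays, by a small margin at the nearest pair. The difference was -0.85 (SE 0.18, limma adjusted p = 0.00546), and in NSCPs Axl still stood 4.84 above the background level. The 95% interval, from -1.26 to -0.43, includes a 2-fold change.

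Tyro3 went the other way. This TAM receptor gene, known above all from the nervous system, had values of 6.16, 6.35 and 5.86 in SKPs and of 7.21, 7.63 and 7.22 in NSCPs. The groups did not overlap, and the SKP mean stood 0.80 above the background level. The difference was 1.23 (SE 0.17, limma adjusted p = 5.21e-04), with a 95% interval from 0.84 to 1.63.

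Mertk encodes the TAM receptor best known from the engulfment of dying cells by macrophages. It had SKP values of 9.13, 7.73 and 8.38, and NSCP values of 8.99, 8.79 and 8.76. SKP replicate 1 lay above all NSCP arrays and SKP replicates 2 and 3 below them, so the groups overlapped. The difference of 0.44 (SE 0.30) did not pass (limma adjusted p = 0.273), and its 95% interval ran from -0.25 to 1.13. Without SKP replicate 1 the difference was 0.79 and passed (limma adjusted p = 0.0162), and without SKP replicate 2 it was 0.09. The range over the arrays was 1.40 in SKPs and 0.23 in NSCPs.

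The order of Mertk over the SKP arrays was that of the leukocyte markers and of some other marker lists. The mean of the 15 markers was 10.29, 9.27 and 9.57 in SKP replicates 1, 2 and 3, and Mertk had the same order over these arrays. So did Axl, Hgf and Mst1r, which makes 4 of the 8 genes, against 24.6% of the genes above background in SKPs. The SKP values of Mst1r (5.67, 5.27 and 5.37) lay near the background level, so its place among the 4 is not firm. Of the 15 markers 12 had this order, but it was taken from their own mean. Gas6, Pros1, Tyro3 and Met did not have this order. It was not particular to leukocyte markers, since the means of the adipocyte markers (8.69, 8.05 and 8.61) had it too. The means of the keratinocyte markers (5.16, 4.97 and 5.15) also had it, but they lay below the background level. In the NSCP arrays the mean of the 15 leukocyte markers was 5.26, 5.15 and 5.13, below the background level. Mertk and Axl there stood 3.53 and 4.84 above that level. The part of leukocytes or of other cells in the SKP values of these genes was not tested.

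**Figure D2:**
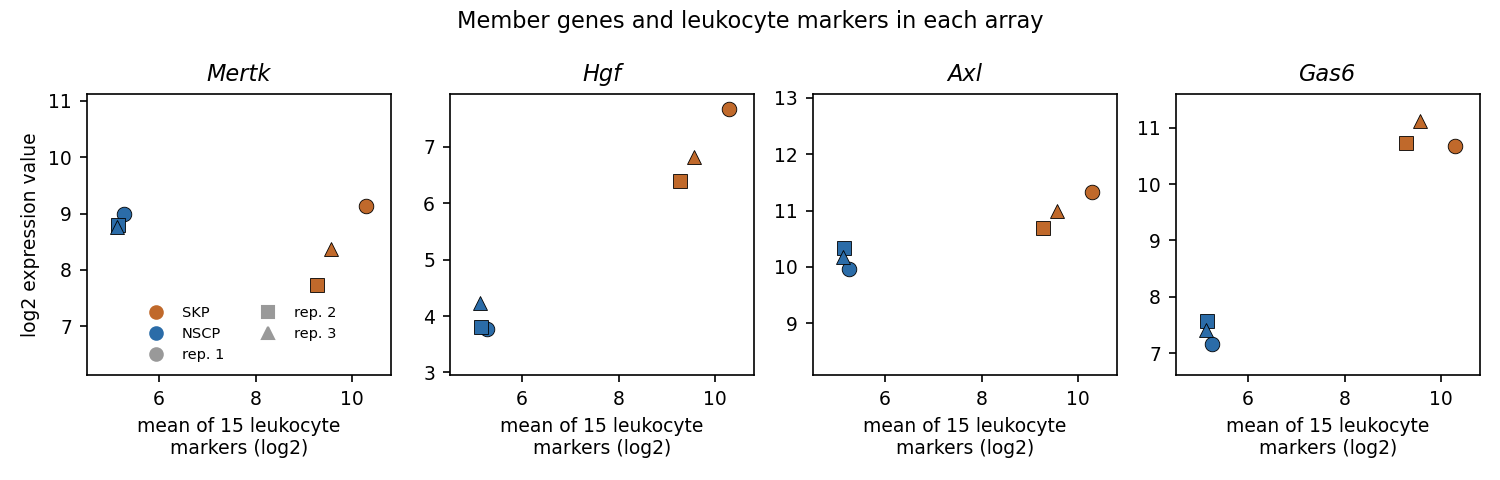
Log2 values of Mertk, Hgf, Axl and Gas6 (vertical axes, each spanning the same number of log2 units) against the mean log2 value of 15 macrophage and leukocyte markers (horizontal axis) in each of the 6 arrays, SKPs in orange and NSCPs in blue. Over the SKP arrays Mertk, Hgf and Axl are highest in replicate 1 and lowest in replicate 2, as the markers are, and Gas6 is highest in replicate 3; in the NSCP arrays the marker means are 5.13 to 5.26.

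Hgf had SKP values of 7.68, 6.39 and 6.82 and NSCP values of 3.76, 3.81 and 4.23. Every SKP array was above background and every NSCP array within it. The measured difference was -3.03 (SE 0.30, limma adjusted p = 6.23e-05), but because it is taken from a background level, the firmer statement is that the SKP mean stood 1.64 above the background level, 3.13-fold on the linear scale. Hgf is known from mesenchymal cells and from macrophages, and the markers of both were lower in NSCPs, as given above. The difference was -2.67 without SKP replicate 1, where Hgf itself was highest, -3.31 without SKP replicate 2 and -3.10 without SKP replicate 3. The part of mesenchymal cells or macrophages in the Hgf values was not tested.

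Met, the HGF receptor gene, had SKP values of 7.63, 7.60 and 7.50 and NSCP values of 8.83, 8.62 and 8.86. The arrays within a group lay close together, and the groups did not overlap. The difference was 1.19 (SE 0.12, limma adjusted p = 7.68e-05), with a 95% interval from 0.91 to 1.47. The ligand gene and the receptor gene of this pair were thus higher in different cultures, Hgf in SKPs and Met in NSCPs. In SKPs Met too stood above background, by 2.26. Epithelial cells and melanocytes also express Met. Of 6 keratinocyte markers 2 were higher in NSCPs and 0 lower (limma, 4 and 0 at an unadjusted p under 0.05). The higher ones were Cdh1, with means of 6.47 in SKPs and 7.55 in NSCPs, and Epcam, within background in both groups. The keratin genes Krt1, Krt10, Krt14 and Krt15 did not pass. The summed linear signals of the 6, Cdh1 included, ran from 207.0 to 303.9 in SKPs and from 332.6 to 437.8 in NSCPs. In each array 2 or 3 of the 6 were within background. The keratin genes had group means from 4.56 to 5.69, near or within background, so these sums are not firm. Of 7 melanocyte markers 2 were higher and 2 lower, and Tyr, the gene of tyrosinase, was within background in both groups. The higher ones were Tyrp1 (1.40) and Dct (1.11), both from SKP means within background, and the lower ones Mitf and Mlana. The summed signal ran from 1356 to 1641 in SKPs and from 525.0 to 572.4 in NSCPs, but without Mitf, which made up most of the SKP sums, the other 6 markers summed to 231.5 to 256.3 in SKPs and 292.6 to 342.0 in NSCPs. The part of such cells in the Met values was not tested.

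Mst1r had SKP values of 5.67, 5.27 and 5.37 and NSCP values of 4.85, 5.15 and 5.21, all near the background level. The arrays did not overlap, but the difference of -0.37 (SE 0.15) missed the threshold (limma unadjusted p = 0.0442, adjusted p = 0.0875). Mst1, the gene of its ligand MSP, was within background in both groups, at 4.97 in SKPs and 5.02 in NSCPs.

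As receptor tyrosine kinases, the 5 receptor genes were set beside the other members of that family. Of 48 others measured, 11 were higher and 18 lower in NSCPs, 60.4% in all, with a median difference of -0.21, beside 0.14 over all genes. Far larger differences than those of the TAM and MET receptors occurred there. Erbb3, the neuregulin receptor gene, was higher by 4.78, Aatk by 4.34 and the neurotrophin receptor gene Ntrk3 by 3.55, and Pdgfra, the collagen receptor gene Ddr2 and Epha7 were lower, with differences of -6.88, -5.87 and -4.71. Ddr2 and Epha7 were within background in NSCPs. The NSCP mean of Pdgfra (5.44) and the SKP mean of Aatk (5.37) lay near the background level. The sizes of the differences of Ddr2, Epha7, Pdgfra and Aatk are thus not firm. Taken with their sign, the differences of Tyro3 and Met were each exceeded by 7 of the 48, and that of Axl lay above those of 16. Among the 7 are Aatk and Tek, the latter with an SKP mean (4.89) within background. Kinases that were lower in NSCPs by a larger amount are not among these 7.

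**Figure D3:**
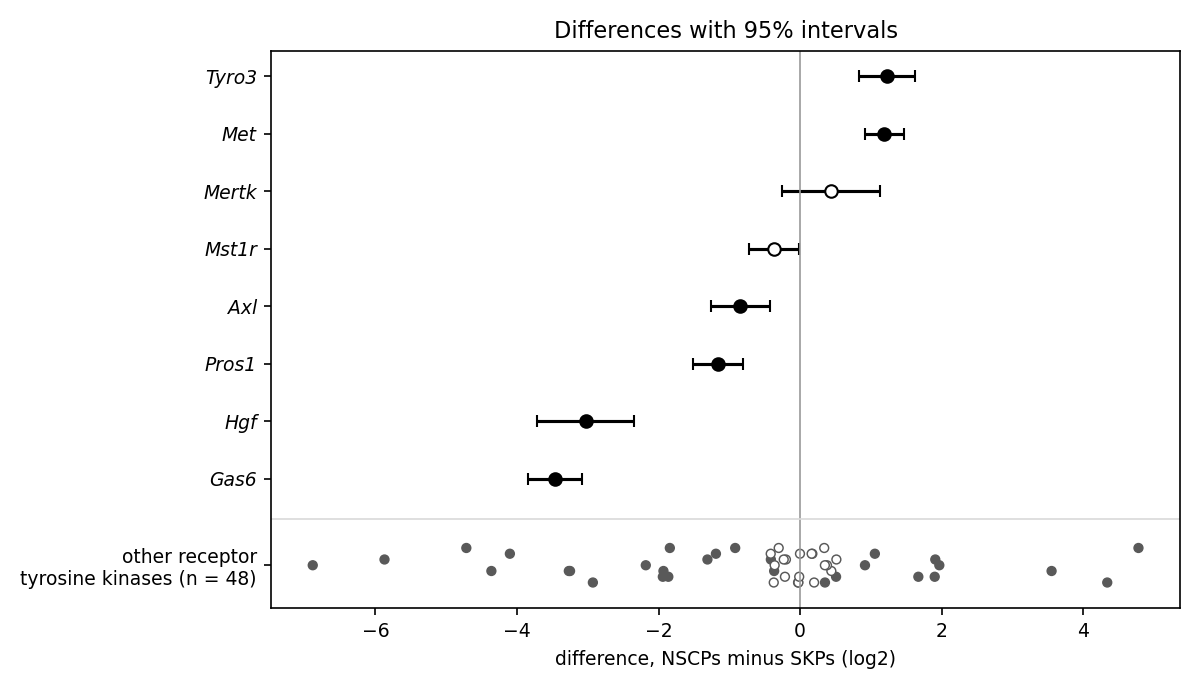
Differences between NSCPs and SKPs on the log2 scale for the 8 genes, with 95% intervals of the fit, above the differences of 48 other receptor tyrosine kinase genes; filled points passed an adjusted p under 0.05 and open points did not. Tyro3 and Met lie to the right of 0 and Axl, Pros1, Hgf and Gas6 to the left, and the other kinases run from -6.88 to 4.78.

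The genes around the receptors were taken from 12 lists with 143 genes, of which 125 were measured and 78 called. The counts of each list stand beside 43.7% called over all genes and 54.3% over genes above background in at least 1 group. Genes of the vitamin K cycle and of ligand maturation, among them Calu, whose product is described as an inhibitor of the carboxylase, were lower in NSCPs in 5 of 8 and higher in 0 (6 and 0 when limma's p was left unadjusted). Ggcx, which encodes the carboxylase that modifies GAS6 and protein S, differed by -1.13 (SE 0.16, limma adjusted p = 4.52e-04), and Vkorc1, which encodes the reductase that recycles vitamin K, by -0.81. The convertase genes Pcsk5 (-1.09) and Furin (-0.99) were lower too. The median of this list was -0.71.

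Among genes for shedding, partners and atypical ligands of TAM receptors, 4 of 7 were lower and 1 was higher. Itgb5, which encodes an integrin subunit that works with MERTK in engulfment, was lower, with a difference of -2.19, and so were the exchange factor genes Vav3 (-3.07) and Vav1 (-2.57). Vav1 is a gene of leukocytes. Its NSCP mean (5.38) lay near the background level, and the NSCP mean of Vav3 lay within background. Adam17, which encodes a protease that sheds MERTK, was higher by 0.43.

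Genes of phosphatidylserine recognition and engulfment had 8 lower and 4 higher members among 28, or 42.9%, near the 43.7% of all genes, with a median of -0.03. The lower members included bridging and receptor genes with large differences. Mfge8, which encodes another bridge between phosphatidylserine and integrins, stood at 10.58 in SKPs and 6.31 in NSCPs (difference -4.27, SE 0.13, limma adjusted p = 8.22e-08), and Lrp1, an engulfment receptor gene, at 11.65 and 7.52 (-4.13). Pear1 (-3.28) and Sirpa (-1.31), the gene of the receptor of the signal that restrains engulfment, were lower as well. Megf10, an engulfment receptor gene of glia, was higher by 1.30 (SE 0.23, limma adjusted p = 0.00204), and Adgrb1 by 0.53.

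Genes described downstream of TAM receptors in the dampening of innate signals had 5 of 8 members lower and 1 higher, with a median of -0.86. The nuclear receptor gene Nr1h3, which encodes a sensor of sterols active after engulfment, differed by -3.31 and its partner gene Rxra by -1.13. The NSCP mean of Nr1h3 (5.46) lay near the background level. Twist2 (-3.55) and Twist1 (-1.33) were lower, the latter with an NSCP mean within background. Twist2 also stands among the fibroblast markers. Socs3, which encodes a feedback inhibitor of cytokine receptors, was higher by 0.53, while its relative Socs1 was lower (-0.60).

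Around HGF, proteases that activate it had 4 higher and 2 lower members among 12, several of them within background in both groups. Plau, which encodes urokinase, stood at 7.73 in SKPs and 5.73 in NSCPs (difference -2.00, SE 0.27, limma adjusted p = 3.71e-04), and St14 (-0.72), the gene of matriptase, was lower, with an NSCP mean within background. Plg (0.73), the plasminogen gene, was higher, with an SKP mean within background, and Hpn (0.60), the gene of hepsin, passed the test with both means within background. Of 4 measured inhibitors, Spint2 (-1.94) and Serpine2 (-1.65) were lower and Spint1 was higher by 0.98 from an SKP mean within background. The NSCP mean of Spint2 (5.49) lay near the background level.

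Co-receptors and partners of MET passed the test in 12 of 12, 6 in each direction. Higher in NSCPs were Erbb3, the integrin gene Itgb4 (3.42, SE 0.15, limma adjusted p = 5.41e-07) and the plexin gene Plxnb3 (3.16). Lower were Egfr (-4.10), the syndecan gene Sdc1 (-2.83) and the neuropilin gene Nrp1 (-1.87). The SKP mean of Plxnb3 (5.35) and the NSCP mean of Egfr (5.40) lay near the background level, so the sizes of their differences are not firm. Itgb4 and Erbb3 are also known as Schwann cell genes. Sema4d had a pair of probe sets that disagreed, with differences of -1.34 for the brighter, which was kept, and 0.30 for the other, which did not pass.

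Adaptors of MET had 5 higher and 5 lower members among 15, with a median of 0.02. Gab1, which encodes the main docking protein of MET, was higher in NSCPs by 0.87 (SE 0.11, limma adjusted p = 3.43e-04). Src (1.07), Rap1a (0.96) and the phosphatase gene Ptpn11 (0.69) were higher as well, and Plcg1 (-2.16) and Shc1 (-1.62) were lower. Among genes that restrain MET, 5 of 9 were lower and 1 higher. Cblb (-3.40) and Cbl (-0.67), which encode ubiquitin ligases that send receptors to degradation, Lrig1 (-1.54) and the matrix gene Dcn (-8.49), whose product binds MET and EGFR, were lower, Dcn to a level within background. Dcn also stands among the fibroblast markers. Spry2 was higher by 0.56.

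Axl is described as a target of YAP with TEAD factors and of AP-1, and the genes of these factors and of further such targets had 6 higher and 3 lower members among 13, with a median of 0.34. Ankrd1 (1.40, from an SKP mean within background), Tead1 (1.37) and Amotl2 (1.10) were higher, and Tead2 (-1.11), Junb (-0.74) and Tead3 (-0.63) were lower. Of 8 transcription factors described upstream of Met, 2 were higher and 2 lower. Sox10 was higher by 3.10 and Ets1 by 0.71, and Mitf (-2.43) and Egr1 (-2.41) were lower. Sox10 also stands among the Schwann cell lineage markers and Mitf among the melanocyte markers.

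**Figure D4:**
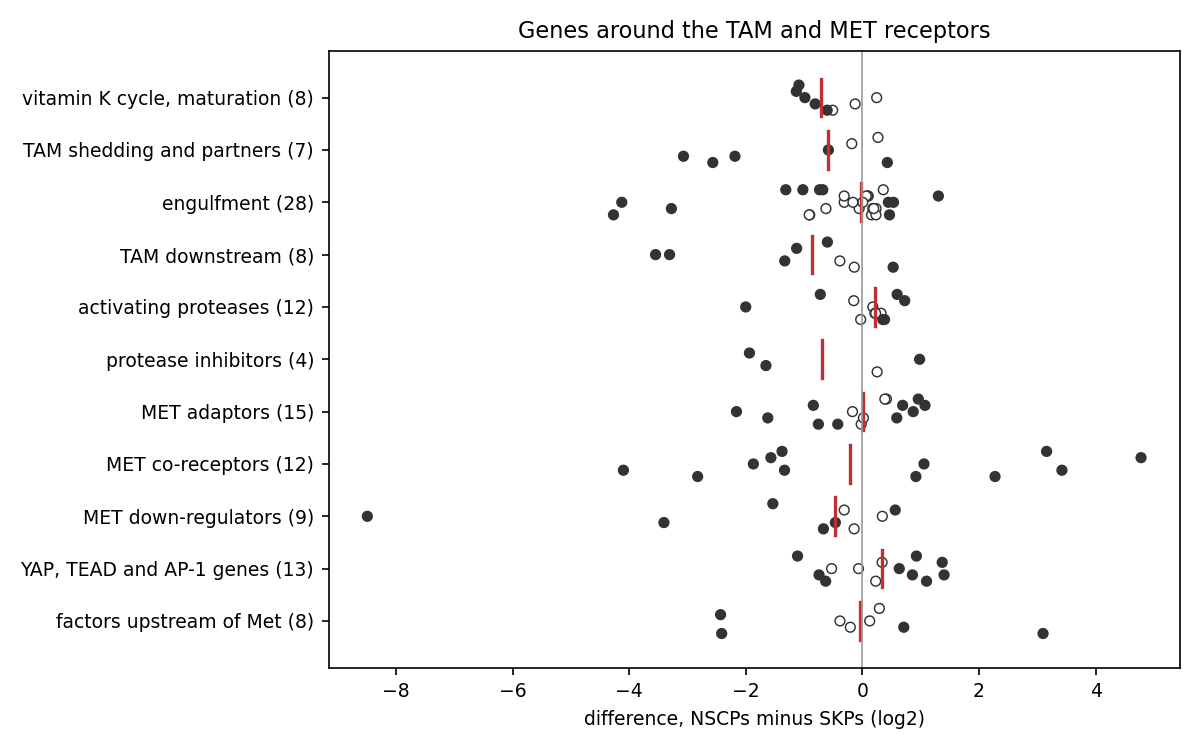
Differences between NSCPs and SKPs on the log2 scale for the measured genes of 11 of the 12 lists, with the number measured in parentheses (the list with Mst1 alone is left out); filled points passed an adjusted p under 0.05, open points did not, and red lines are medians. The vitamin K and maturation list has its called genes to the left of 0, the MET co-receptors lie on both sides, and Dcn is the point at -8.49.

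The genes with values most like those of the 3 members with the largest differences were sought over the 6 arrays, by the root mean square distance between values centred on each gene's mean. For Gas6 they were Traf3ip2 (distance 0.10), Pmaip1 (0.15) and Cybrd1 (0.15). For Hgf they were Rbm47 (0.11), Dock2 (0.15) and Myo1g (0.15). Dock2, a guanine exchange factor gene of leukocytes, had SKP values of 8.76, 7.37 and 7.68. For Tyro3 they were Smdt1 (0.08), Metrnl (0.08) and Ecrg4 (0.09). Such distances are set mostly by the difference between the groups, and a like order over the SKP arrays also follows from the choice by distance.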

How the data were processed

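The submitters' processing notes name RMA and the oligo package, with no versions; RMA corrects background, normalizes by quantiles and summarises probes, and the deposited values are on the log2 scale. Quantile normalization hides a shift shared by all genes. Of 36685 probe sets 18511 had 1 gene symbol in the platform's table, 575 had several and the rest are unnamed here. Of the 18511, 18394 were matched by Entrez ID to RefSeq (GRCr8, for names), whose symbol was then used. Of the 291 genes with several probe sets the brightest was kept, which left 18166 genes.

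The groups were compared in R 4.3.3 with limma 3.58.1 (lmFit, eBayes, 2-sided, no further filter). The p-values of all genes were adjusted together (Benjamini-Hochberg), and an adjusted p under 0.05 was called. The code of the fit was run on simulated data. Far fewer genes were changed there than were called here, so that run does not test these calls. Replicates are separate isolates per the design text; the number of arrays limits the precision. No set test was run. The members and lists were chosen with earlier results of these data known. Named are the 8 members and, per list, up to 4 called genes with the largest difference and 2 of opposite sign. Where fewer than 3 were called, the 3 brightest were named. Further named are 3 other kinases each way, the genes most alike and genes whose probe sets disagree. Calu, Socs1, Tek and some markers are named beside these. Alternatives left out each array in turn, used the replicate number as a block, renormalized, centred, filtered dim genes, averaged probe sets, adjusted over all probe sets, changed the prior, weighted arrays, lowered the threshold to 0.01, or used limma's treat. Python 3.11.15 with matplotlib 3.10.9 drew the figures.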

Additional observations from a re-analysis of the deposited data

How the results depend on the processing

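In 17 alternatives the 8 member genes kept the sign of their difference wherever they were in the fit; the filters on dim genes removed Mst1r, and the stricter of them Hgf too. Under limma's treat 0 members were higher (0 at an unadjusted p under 0.05) and 2 lower (Gas6 and Hgf), and the test called 26 genes of the 12 lists in place of 78 and 19 other receptor tyrosine kinases in place of 29; it tests against a 2-fold change and is stricter by construction. Mertk passed without SKP replicate 1 (0.79) and in no other alternative. Leaving out 1 array gave 2 to 3 members higher and 4 lower. With the replicate number as a block 2 members were higher and 4 lower, and 42.3% of all genes were called in place of 43.7%. The labels do not say whether the numbers pair the samples. Deviations of same-numbered arrays correlated only at 0.0372, 0.0501 and 0.0283, but each array correlated best with its own number. That is a hint from the data and not from the design, and it does not settle whether the samples are paired. Median centring moved the median difference of all genes from 0.14 to 0.21. Detection of Mst1r, Mst1 and, in NSCPs, Hgf is limited by signal over background.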
